A study of Mus musculus with 6 samples.

Results

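Complement is a cascade of blood proteins that marks microbes, debris and dying cells for removal. The 8 complement genes described here were taken by symbol from the 57180 genes of a table that compares CD36+ NK with CD36- NK cells of fibrotic mouse liver, and all 8 were among the 14761 genes with enough counts to be tested. They encode the 3 chains of C1q (C1qa, C1qb and C1qc), the central component C3, properdin (Cfp), factor B (Cfb) and the receptors of the anaphylatoxins C3a and C5a (C3ar1 and C5ar1). Both groups came from male C57BL/6J wild-type mice of 6 to 8 weeks that had received CCl4, a liver toxin, as 2.5 ml/kg of a 20% solution in olive oil by intraperitoneal injection, 2 times a week for 4 weeks. Livers were taken 48 h after the last injection, NK cells were gated as CD3- NK1.1+ and separated by surface CD36, and total RNA (400 ng) was sequenced from 3 samples of each group. The series describes these as biological triplicates, and whether a sample pooled several animals is not stated in the sources used here. Since no healthy liver is among the 6 libraries, the comparison is between fractions of the same diseased tissue.

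C1q is the recognition molecule of the classical pathway. It is assembled from 3 chains in equal numbers, and in most tissues it is made by macrophages and some dendritic cells rather than by hepatocytes. C3 is cut by the convertases of all pathways, factor B forms the convertase of the alternative pathway, and properdin stabilizes it. Hepatocytes are the main source of circulating C3 and factor B, while myeloid cells make properdin. C3a and C5a, the small fragments released by cutting, act on receptors that are best known from myeloid cells.

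The libraries held 10292480 to 13787189 counts. The library names of the samples titled CD36+ have a double hyphen and no plus after CD36, those of the samples titled CD36- have a single hyphen, and groups here follow the titles. Cd36 itself was at 109.7, 263 and 238 CPM (counts relative to the scaled total of the library) in CD36+ NK replicates 1 to 3 and at 14.3, 31.7 and 17.1 CPM in CD36- NK, so the titles and the transcript of the sorted marker went together. A gene was called when its adjusted p-value (edgeR's quasi-likelihood test, Benjamini-Hochberg over the 14761 genes) was below 0.05 and its fold change above 2. NK genes were present in every library, but a list of 10 genes of the NK lineage was lower in CD36+ NK, with 10 of 10 called (5.96% of all genes tested were called, 2.98% in this direction) and a median log2 fold change of -2.45. A list of 14 macrophage and Kupffer cell genes, none of them a complement gene, had values in the other direction. Its summed level ran from 7666 to 11478 CPM across CD36+ NK and from 2578 to 6332 CPM in the others, 13 of its 13 tested genes had a positive log2 fold change (median 2.68), 12 of them did not overlap between the groups (17.0% of all genes tested were higher in CD36+ NK without overlap), and 5 were called (2.98% in this direction). Clec4f, which defines Kupffer cells, was at 45.9 CPM in CD36+ NK replicate 2 and at 1.51 CPM in replicate 1, and had no count in the other libraries. CD36+ NK replicate 1 stood apart for 7 T cell genes, whose summed level was 301 CPM there and 25.6 to 45.3 CPM elsewhere, although the cells were gated as CD3-. Cd3e, which encodes a chain of CD3, was at 26.97 CPM in that library and at 1.06 CPM or less in each of the others. Of the 7 genes, 2 were called higher in CD36+ NK and did not overlap (2.98% and 17.0% of all genes tested). Cd4 was at 51.4, 11.3 and 23.9 CPM in CD36+ NK and at 4.69, 7.78 and 4.59 CPM in CD36- NK. Cd8a was at 63.2, 8.98 and 16.5 CPM in CD36+ NK and at 2.92, 4.24 and 2.64 CPM in CD36- NK. The other 5 overlapped and were not called.

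Properdin and the C5a receptor rose in CD36+ NK, the C1q chains differed most but fell just short of the threshold, and the levels of C3 and factor B overlapped between the groups. By this rule 2 of the 8 genes, Cfp and C5ar1, were called, against 5.96% of all genes tested (2.98% higher and 2.98% lower in CD36+ NK). All 8 log2 fold changes were positive, with a median of 1.93, where the median of all tested genes was 0.012. In 5 of the 8 genes (C1qa, C1qb, C1qc, Cfp and C5ar1) every CD36+ NK value exceeded every CD36- NK value. Of all genes tested, 17.0% had this order, 15.7% the opposite one, and 32.8% either. In C3, Cfb and C3ar1 the groups overlapped. The 3 C1q chains moved together over the libraries (Pearson correlations of 0.9995 to 0.9998), and Cfp followed them (0.979 to 0.982). The 8 genes are therefore not independent, and the counts and the median weigh this pattern several times.

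**Figure D1:**
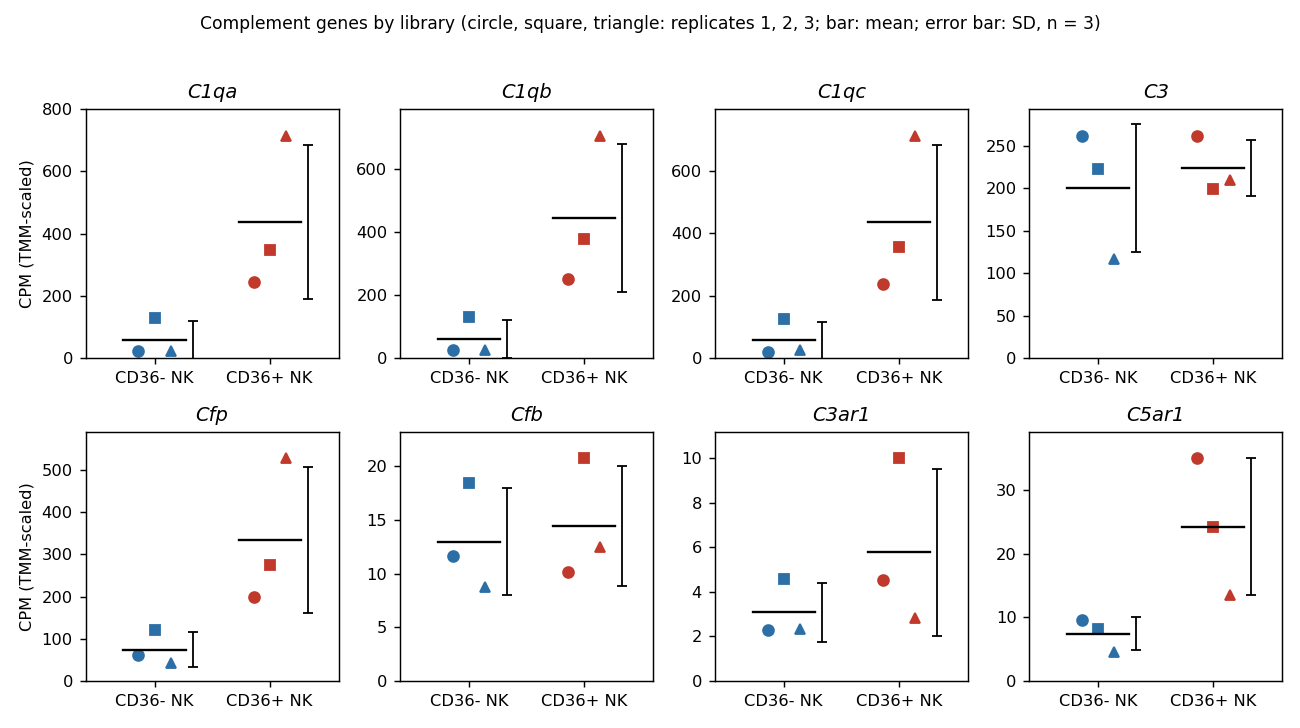
Each panel shows 1 gene, with the level in CPM on the vertical axis and the group on the horizontal axis. Symbols are libraries, horizontal bars are means and error bars are SD (n = 3). The C1q chains, Cfp and C5ar1 show no overlap between the groups, while the points of C3, Cfb and C3ar1 overlap.

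The genes of the C1q chains lie next to each other on the minus strand of chromosome 4, within 18675 bases, in the order C1qb (136607440 to 136613498), C1qc (136617115 to 136620376) and C1qa (136623228 to 136626114) along the coordinates of the deposited table, whose mouse build is not given in the sources used here. The gaps between them are 3616 and 2851 bases. Windows from 250 bases before to 50 bases after the start of transcription are shown for C1qb, C1qc and Cfp, since their levels followed each other closely. They were taken from RefSeq on GRCm38.p6, a set of coordinates that differs from that of the table. Capitals mark the letters GAGGAA, the core of sites for PU.1 and other ETS factors, and TGCTGA, a half-site for MAF factors, on either strand (TTCCTC and TCAGCA on the other).
C1qb, chr4:136886151-136886450, minus strand: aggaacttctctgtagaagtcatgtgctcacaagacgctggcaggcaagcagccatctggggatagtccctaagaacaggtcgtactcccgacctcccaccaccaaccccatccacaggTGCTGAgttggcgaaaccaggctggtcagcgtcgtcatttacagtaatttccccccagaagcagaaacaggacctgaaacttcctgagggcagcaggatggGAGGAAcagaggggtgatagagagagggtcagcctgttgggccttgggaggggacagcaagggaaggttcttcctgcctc
C1qc, chr4:136892865-136893164, minus strand: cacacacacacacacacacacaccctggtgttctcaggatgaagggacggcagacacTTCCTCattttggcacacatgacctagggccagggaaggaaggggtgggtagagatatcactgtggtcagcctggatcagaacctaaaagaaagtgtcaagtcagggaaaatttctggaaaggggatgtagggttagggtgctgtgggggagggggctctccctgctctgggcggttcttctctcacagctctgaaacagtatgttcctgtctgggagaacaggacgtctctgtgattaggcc
Cfp, chrX:20931506-20931805, minus strand: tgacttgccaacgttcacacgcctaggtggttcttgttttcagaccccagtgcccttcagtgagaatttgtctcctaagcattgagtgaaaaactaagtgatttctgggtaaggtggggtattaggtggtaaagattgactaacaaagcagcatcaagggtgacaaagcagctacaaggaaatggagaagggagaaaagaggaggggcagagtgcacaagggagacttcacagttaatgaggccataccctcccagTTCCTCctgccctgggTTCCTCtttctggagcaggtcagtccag
All 3 windows held GAGGAA, which occurs in 28.3% of the 32851 windows of this length. In C1qb it began 30 bases before the start site, in C1qc 193 bases before it, and Cfp held it 2 times after the start. TGCTGA was in the C1qb window and is found in 19.5% of all windows. Among the other members with a window, C3, C3ar1 and C5ar1 held TGCTGA and none of the 3 held GAGGAA. The C3 window also held TTGCGAAA, a match to the C/EBP motif TTGCNNAA, which 10.8% of windows have. None of the 6 windows searched held an interferon-stimulated response element or GGGNNTTCC (NF-kappaB), present in 3.44% and 5.82% of windows. No window was used for C1qa and Cfb. These matches are of letters only.

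C1qa (ENSMUSG00000036887), which encodes the A chain, had 2755, 4735 and 8595 counts in CD36+ NK replicates 1 to 3 and 297, 1451 and 240 counts in CD36- NK, that is 245, 348 and 715 CPM and 22.8, 128 and 23.4 CPM. The B chain gene C1qb (ENSMUSG00000036905) was at 252, 380 and 708 CPM in CD36+ NK and at 24.98, 132 and 26.1 CPM in CD36- NK. The C chain gene C1qc (ENSMUSG00000036896) was at 237, 356 and 713 CPM in CD36+ NK and at 21.1, 126 and 24.8 CPM in CD36- NK. In each chain every CD36+ NK library was above every CD36- NK library, and CD36- NK replicate 2 stood 5.29 to 5.97 times above the lowest library of its own group. The means with their SD (n = 3 per group) were 436 ± 247 CPM against 58.2 ± 60.7 for C1qa, 446 ± 235 against 61.1 ± 61.5 for C1qb and 435 ± 248 against 57.4 ± 59.6 for C1qc, with CD36+ NK first. The log2 fold changes were 2.91 (standard error 0.773) for C1qa, 2.87 (0.740) for C1qb and 2.92 (0.776) for C1qc, about 7.31-fold to 7.59-fold higher. Their edgeR adjusted p-values of 0.0576, 0.0527 and 0.0571 were just above the threshold, so none of the 3 was called. The 95% intervals of the fold ran from 2.12 to 26.5 for C1qa, from 2.19 to 24.5 for C1qb and from 2.14 to 26.9 for C1qc. In bulk RNA, more cells of a type that makes C1q and more C1q transcript per cell cannot be told apart.

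Whether C1q was called turned on single libraries. Without CD36+ NK replicate 1, C1qb alone of the chains was called (edgeR adjusted p = 0.0482), in a fit that called 1122 genes in all against 880 with every library. Without CD36- NK replicate 2 the log2 fold changes were 4.23, 4.12 and 4.24 and all 3 chains were called (edgeR adjusted p = 0.00767, 0.00718 and 0.00785), where 7.59% of tested genes were. DESeq2 also called all 3 with adjusted p-values of 0.0125, 0.00975 and 0.0121 (7.74% of tested genes called), and so did edgeR's exact test (8.42% of tested genes called). The libraries of both replicates 1 carry names of another form than the rest. Between the replicates 1 alone, C1qa was 3.42 higher in CD36+ NK on the log2 scale, and between the 2 libraries of each group with the other form of name it was 3.18 higher. With this form as a block the 3 chains were called as well (edgeR adjusted p from 0.0362 to 0.0397, 6.18% of tested genes called). With the replicate number as a block, under which 3.79% of tested genes were called, C5ar1 was the only called gene of the 8.

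The 3 chains kept nearly the same proportions whatever their level. Their summed level spanned a 31.0-fold range, from 69.0 CPM in CD36- NK replicate 1 to 2136 CPM in CD36+ NK replicate 3. Over that range C1qa took 31.5% to 33.5% of the counts of the 3 genes, C1qb 33.1% to 36.2% and C1qc 30.7% to 33.4%. Per length the order was different. The FPKM values deposited by the authors (counts relative to gene length and library total) rest on lengths of 1040, 1088 and 2149 bases for the A, B and C chain genes, and on this scale C1qb was 0.947 to 1.06 times C1qa while C1qc was 0.448 to 0.512 times C1qa. The equal counts and the unequal FPKM values are thus the same data divided by different lengths. Over the 6 libraries the log2 levels of the chains had Pearson correlations of 0.9998 (C1qa and C1qb), 0.9995 (C1qa and C1qc) and 0.9996 (C1qb and C1qc), as a description of points that share libraries and depth.

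C1q was set against the macrophage genes within each library. The mean log2 level of the 3 chains minus that of the 13 tested macrophage genes was 0.478, 0.531 and 0.842 in CD36+ NK replicates 1 to 3 and -0.648, 0.236 and 0.111 in CD36- NK. The libraries did not overlap, and the difference between the groups was 0.717 (two-sided exact permutation test, p = 0.1, below which 3 against 3 cannot go). Without CD36- NK replicate 1 it was 0.444. This was smaller than the difference of C1q itself, since most of the macrophage genes differed in the same direction. The macrophage genes ran from 0.095 for Lyz2 (lysozyme, the most expressed of them) to 3.50 for Marco in log2 fold change. Csf1r, which encodes the receptor of the macrophage growth factor CSF1, had one of 1.89. Of the 10009 tested genes with a mean of at least 10 CPM, the 3 outside C1q whose levels followed the mean of the chains most closely were Col14a1, Slc16a9 and Axl (Pearson correlation 0.9992, 0.9992 and 0.9991 over 6 libraries), chosen for this after the values were seen. Axl is itself one of the macrophage genes. For C1qc alone, Epb41l3 came second after C1qb, with a correlation of 0.9995. The part of macrophage RNA in the C1q difference was not tested.

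**Figure D2:**
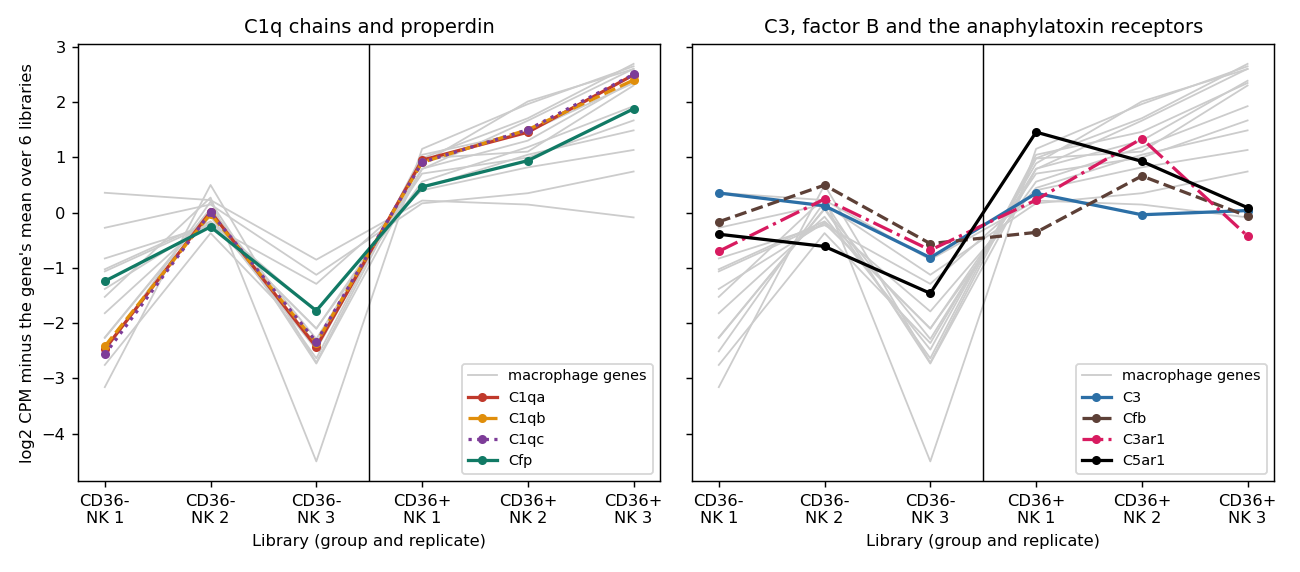
The vertical axis gives the log2 CPM of a gene minus its mean over the 6 libraries, and the horizontal axis the libraries, with lines joining the points of 1 gene. Grey lines are the 13 tested macrophage genes. On the left the C1q chains lie on each other and Cfp follows with a smaller range, with CD36+ NK replicate 3 highest and CD36- NK replicate 2 highest of its group. On the right C3, Cfb, C3ar1 and C5ar1 do not share this order.

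Properdin rose in CD36+ NK. Cfp (ENSMUSG00000001128, chromosome X, 20791693 to 20797794, minus strand) had 2229, 3748 and 6352 counts in CD36+ NK and 790, 1360 and 429 in CD36- NK. This was 198, 276 and 528 CPM against 60.7, 120.2 and 41.9 CPM, without overlap and with the same library at the top of each group as for C1q. The log2 fold change was 2.17 (standard error 0.485, edgeR adjusted p = 0.0353), a 4.50-fold difference with a 95% interval from 2.04 to 9.92. The call was lost without CD36+ NK replicate 2 or 3 or CD36- NK replicate 1 or 3 (edgeR adjusted p from 0.0834 to 0.121) and under the replicate block (0.0786), while the log2 fold change stayed between 1.68 and 2.70 whichever library was left out. Relative to the mean of the C1q chains, Cfp was -0.301, -0.389 and -0.431 on the log2 scale in CD36+ NK and 1.40, -0.099 and 0.755 in CD36- NK, a difference of -1.06 (exact permutation test, two-sided, p = 0.1). The libraries did not overlap on this measure, and the p is again the smallest that the design allows. Without CD36- NK replicate 1 the difference was -0.70. Relative to the macrophage genes, a comparison chosen after the values were seen, the groups overlapped and differed by -0.341 (exact permutation test, two-sided, p = 0.4). The genes with the pattern most like that of Cfp were Tmem86a and Creg1 (Pearson correlation 0.998 for each). Here and below, such genes are the top of 10009 compared over 6 libraries. High correlations can arise from that choice alone, and none was tested.

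C3 was abundant in both groups. C3 (ENSMUSG00000024164, chromosome 17, 57510970 to 57535136, minus strand) had 2935, 2713 and 2531 counts in CD36+ NK and 3411, 2526 and 1193 in CD36- NK. This was 261, 200 and 210 CPM in CD36+ NK and 262, 223 and 116.5 CPM in CD36- NK. The groups overlapped, and CD36- NK replicate 3 was the lowest library by far. The log2 fold change was 0.16 (standard error 0.281, edgeR adjusted p = 0.784) with a 95% interval of the fold from 0.704 to 1.76, and without CD36- NK replicate 3 it was -0.12, so no direction is given. Relative to the C1q chains, C3 was 3.01 lower on the log2 scale in CD36+ NK than in CD36- NK, without overlap (exact permutation test, two-sided, p = 0.1, adjusted p = 0.1 over C3, Cfp and Cfb). As C3 itself differed by 0.16, this mostly restates the C1q difference with its sign reversed. The p is the smallest that the design allows. The levels of Tmem147 and Rnh1 were most like those of C3 (Pearson correlation 0.990 and 0.986, the top of 10009 genes, not tested). Of 9 hepatocyte genes 8 had too few counts to be tested. The exception was Trf, the gene of transferrin, which other cells express too. It was at 278, 381 and 792 CPM in CD36+ NK and at 106, 190 and 63.7 CPM in CD36- NK, and was called higher (log2 fold change 2.01, edgeR adjusted p = 0.0477). Alb, the gene of albumin, was at most at 7.80 CPM, in CD36+ NK replicate 2.

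Factor B was low in every library. Cfb (ENSMUSG00000090231, chromosome 17, 35075350 to 35081494, minus strand) was at 10.1, 20.7 and 12.5 CPM in CD36+ NK and at 11.6, 18.5 and 8.79 CPM in CD36- NK, from 90 to 282 counts. Its groups overlapped throughout, and both replicates 2 were highest. The log2 fold change was 0.16 (standard error 0.350, edgeR adjusted p = 0.824) with a 95% interval of the fold from 0.631 to 1.98, and it was -0.20 without CD36+ NK replicate 2 and -0.06 without CD36- NK replicate 3. Gm20547, a gene on the same strand whose span overlaps those of Cfb and its neighbour C2, had 397 counts over the 6 libraries, and counting could have split fragments between them. Relative to the C1q chains, Cfb was 3.09 lower on the log2 scale in CD36+ NK (exact permutation test, two-sided, p = 0.1). As Cfb itself differed by 0.16, this too mostly restates the C1q difference, and the p is the smallest that the design allows. Ubxn8 and Coq10a had the pattern most like Cfb (Pearson correlation 0.963 and 0.962, the top of 10009 genes, not tested).

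The C5a receptor rose, while the C3a receptor was low and its groups overlapped. C5ar1 (ENSMUSG00000049130, chromosome 7, 15980668 to 15993465, minus strand) had 393, 329 and 162 counts in CD36+ NK and 125, 93 and 46 in CD36- NK. In CPM it was at 35.0, 24.2 and 13.5 in CD36+ NK and at 9.61, 8.22 and 4.49 in CD36- NK. The groups did not overlap, but within CD36+ NK the order was that of C1q reversed, with replicate 1 highest and replicate 3 lowest. Its log2 fold change was 1.69 (standard error 0.400, edgeR adjusted p = 0.0402), a 3.23-fold difference with a 95% interval from 1.68 to 6.20. The call held without CD36+ NK replicate 3 (edgeR adjusted p = 0.0327) and was lost without any 1 of the other libraries (0.0708 to 0.123) and without a filter on low counts (0.0554), with log2 fold changes from 1.32 to 1.98. CD36+ NK replicate 1 also had the highest summed level of 11 neutrophil genes, at 4266 CPM, against 738 and 885 CPM in CD36+ NK replicates 2 and 3 and 3424, 1956 and 1397 CPM in CD36- NK replicates 1 to 3. By edgeR 0 of the neutrophil genes were called, against 5.96% of all genes tested. Of the 11, 1 had an unadjusted p below 0.05, which was Csf3r (the receptor of the growth factor G-CSF). Csf3r was also the 1 gene of the 11 without overlap between the groups, where 32.8% of all genes tested had none. Monocyte genes had no common direction. Of 13 monocyte genes, 3 were called higher and 1 lower, against 2.98% of all genes tested in each direction. Their median log2 fold change was -0.42, and their summed levels overlapped (3483 to 3664 CPM against 2979 to 3911 CPM). Cd14, Clec4e and Ace were those called higher (1.70, 1.77 and 2.04 on the log2 scale), while Ccr2, the receptor that guides monocytes out of the marrow, was the one called lower, with -1.35. Within CD36+ NK, Cd14 was at 105.7, 94.7 and 122.7 CPM, an order of libraries that is not that of C5ar1. The macrophage genes had the median of 2.68 given above, and CD36+ NK replicate 1, the library with the most C5ar1, also had the highest summed level of the T cell genes. Neutrophils, monocytes and macrophages can all carry C5ar1, and their part in its difference was not tested. Isg20 and Chchd4 had the pattern most like C5ar1 (Pearson correlation 0.991 and 0.990, the top of 10009 genes, not tested).

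C3ar1 (ENSMUSG00000040552, chromosome 6, 122824097 to 122833120, minus strand) had 51, 136 and 34 counts in CD36+ NK and 30, 52 and 24 in CD36- NK. In CPM it was at 4.54, 10.01 and 2.83 in CD36+ NK and at 2.31, 4.60 and 2.34 in CD36- NK. The groups overlapped, since CD36+ NK replicate 3, the library with the most C1q, was below CD36- NK replicate 2. A count of 24 has a 95% Poisson interval from 15.4 to 35.7, which covers counting error only. The log2 fold change of 0.91 (standard error 0.512) was not past the threshold (edgeR adjusted p = 0.316), with a 95% interval of the fold from 0.817 to 4.35, so these libraries exclude neither equal levels nor a difference of up to that upper bound. Without CD36+ NK replicate 2 it was 0.26. Tacc3 and Phf11c were most like it (Pearson correlation 0.982 and 0.976, the top of 10009 genes, not tested). The mean log2 level of both receptors relative to the C1q chains was -4.25, -4.52 and -6.80 in CD36+ NK and -2.23, -4.35 and -2.86 in CD36- NK, a difference of -2.04 with overlap (exact permutation test, two-sided, p = 0.2) that was -1.24 without CD36+ NK replicate 3. With each receptor alone, compared after the values were seen, the difference was -2.48 for C3ar1 (exact permutation test, two-sided, p = 0.1) and -1.60 for C5ar1 (p = 0.3).

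Per length, the C1q A and B chain genes were the most expressed of the 8 in CD36+ NK, at 409 ± 220 and 400.1 ± 200 FPKM (SD, n = 3), followed by C1qc at 197 ± 107, Cfp at 160 ± 78.1 and C3 at 38.9 ± 6.65. C5ar1 was at 4.32 ± 2.02, Cfb at 2.96 ± 1.14 and C3ar1 at 1.33 ± 0.862 FPKM. In CD36- NK the means of the first 5 lay closer together, with C1qa at 57.2 ± 60.5, C1qb at 57.4 ± 58.6, Cfp at 37.1 ± 21.1, C3 at 35.9 ± 13.7 and C1qc at 27.3 ± 28.7 FPKM. These SD are between libraries, and within each CD36- NK library C1qc was still 0.448 to 0.512 times C1qa. Cfb, at 2.74 ± 1.10 FPKM, was there above C5ar1 at 1.36 ± 0.493 and C3ar1 at 0.728 ± 0.323.

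The rest of the complement system was examined in 4 lists with 49 genes, of which 21 could be tested. Of these, 2 were called higher (C2 and Cr2) and 2 lower (Itgam and Itgax) in CD36+ NK, against 2.98% of all genes tested in each direction, and their median log2 fold change was 0.31. Of the 28 genes that were not tested, 8 had no count in any library, among them Cfd, which encodes factor D, the protease that cuts factor B, and the terminal components C7 and C9. Hc, the gene of C5 itself, did not exceed 0.166 CPM.

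Among genes that start the cascade, 6 of 17 could be tested. C2, the protease of the classical convertase, was at 7.57, 15.01 and 27.6 CPM in CD36+ NK and at 1.46, 5.31 and 2.15 CPM in CD36- NK. The difference on the log2 scale was 2.496 (standard error 0.606, edgeR adjusted p = 0.0438). Its libraries had the same order as C1q in CD36+ NK, and its reads may be shared with Gm20547. Fcna, which encodes ficolin A, a recognition molecule of the lectin pathway made by macrophages, was at 225, 278 and 616 CPM in CD36+ NK and at 21.3, 127 and 18.6 CPM in CD36- NK. Its log2 fold change of 2.75 was close to those of C1q and, like them, just missed the threshold (edgeR adjusted p = 0.0754). Fcnb, the other ficolin gene, known from neutrophils and monocytes, was at 28.3, 4.19 and 6.15 CPM in CD36+ NK and at 23.1, 19.5 and 8.69 CPM in CD36- NK (log2 fold change -0.42, edgeR adjusted p = 0.767). C4b and C4a, near-identical genes of C4 whose reads are easily exchanged, had log2 fold changes of 1.55 and -0.03 and were not called.

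Of the 7 terminal components only C6 could be tested. It was at 40.3, 67.0 and 142.4 CPM in CD36+ NK and at 2.84, 27.1 and 2.25 CPM in CD36- NK, again with CD36- NK replicate 2 far above its group, and its log2 fold change of 2.96 was not past the threshold (edgeR adjusted p = 0.0940). By edgeR 0 of the 6 tested regulators were called, and 1 (Cd59a) had an unadjusted p below 0.05. Cd55, which encodes decay-accelerating factor, ran from 229 to 291 CPM across CD36+ NK and from 249 to 303 CPM in the others (log2 fold change -0.06, 95% interval from -0.36 to 0.25). Cr1l, which encodes the rodent membrane regulator Crry, was at 90.6 to 105 CPM and 106 to 111 CPM (log2 fold change -0.13, 95% interval from -0.34 to 0.07). These membrane regulators therefore differed by less than 2-fold at these intervals.

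**Figure D3:**
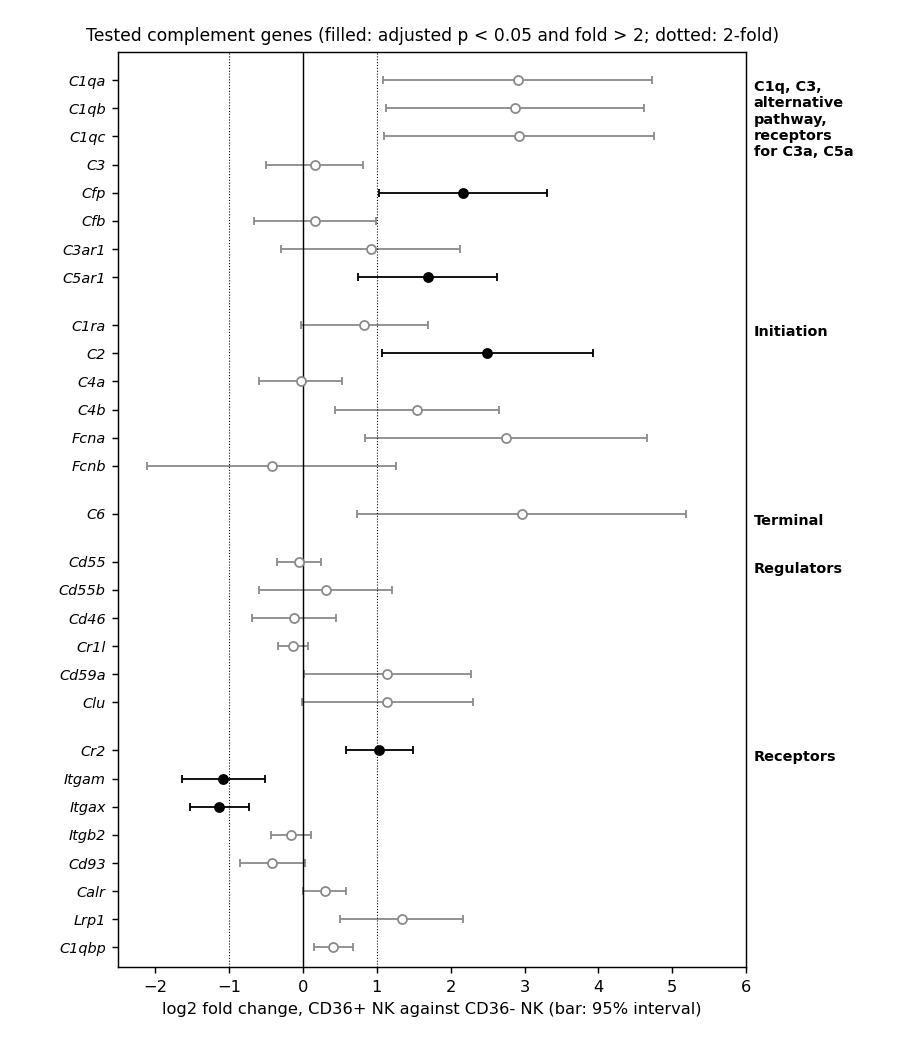
Points are the log2 fold changes of the 29 tested complement genes, with positive values for higher levels in CD36+ NK, and bars are 95% intervals. Filled points passed the adjusted p of 0.05 and the 2-fold change (dotted lines). C2, Cfp, C5ar1 and Cr2 were called to the right and Itgam and Itgax to the left, and the 3 C1q chains have wide intervals that lie above 0.

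Among 10 complement receptors 8 were tested. Cr2, which encodes the receptor for C3 fragments on B cells, was at 323, 504 and 482 CPM in CD36+ NK and 188, 251 and 199.6 CPM in CD36- NK. The difference on the log2 scale was 1.04 (standard error 0.195, edgeR adjusted p = 0.0206). In a list of 8 B cell genes, 4 had an edgeR adjusted p below 0.05 (6 an unadjusted one) but 0 exceeded the 2-fold limit. Thus 0 were called, where 2.98% of all genes tested were called higher. The median log2 fold change of the B cell genes was 0.51. Of them, 6 were higher in CD36+ NK without overlap (17.0% of all genes tested were), while Ighd and Fcmr overlapped. Their summed level ran from 11808 to 13696 CPM across CD36+ NK and from 7284 to 9602 CPM in the others. Their part in the Cr2 difference was not tested. Itgam and Itgax, the alpha chains of complement receptors 3 and 4, fell with log2 fold changes of -1.08 (standard error 0.238, edgeR adjusted p = 0.0336) and -1.13 (0.171, 0.00969), at 122 to 198 CPM against 261 to 399.6 CPM for Itgam and 197 to 255 CPM against 415 to 611 CPM for Itgax. NK cells and monocytes carry Itgam. The NK lineage genes had the median of -2.45 given above. Of the monocyte genes, Ccr2 was called lower, while Cd14, Clec4e and Ace were called higher. The part of either cell type in the Itgam and Itgax differences was not tested. Itgb2, their shared beta chain, was at 856 to 1067 CPM and 1070 to 1147 CPM (log2 fold change -0.16, edgeR adjusted p = 0.423), and Calr, which encodes calreticulin, a binding partner of C1q, had a log2 fold change of 0.29 (edgeR adjusted p = 0.183). Vsig4, the complement receptor of Kupffer cells, was at 13.3 CPM in CD36+ NK replicate 2, the library that also held Clec4f, and at 0.890 CPM or less in every other library, so it was not tested.

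**Figure D4:**
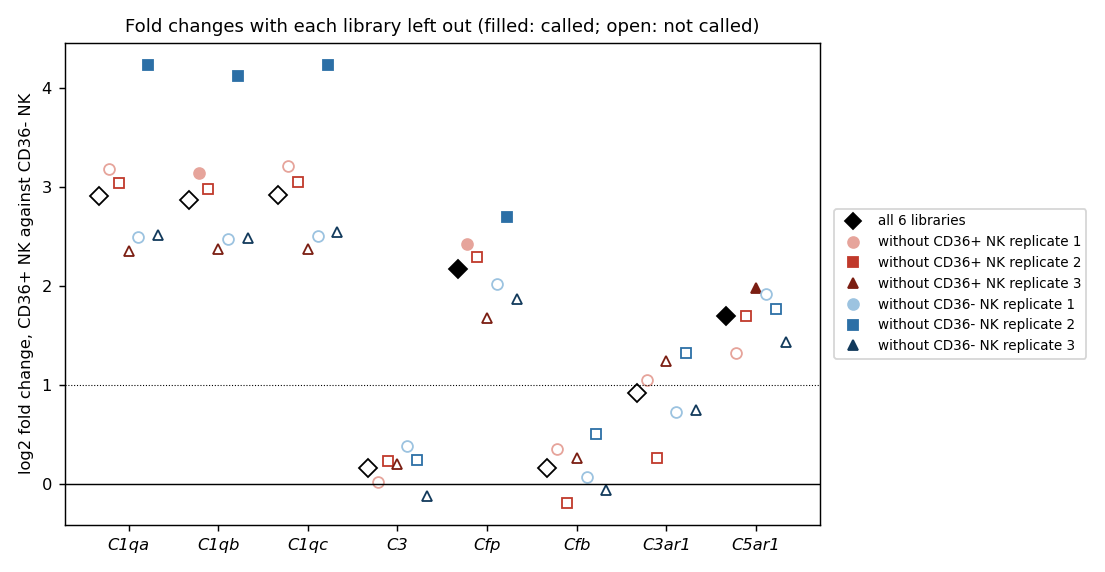
The vertical axis gives the log2 fold change of each of the 8 genes on the horizontal axis, fitted to all 6 libraries (diamonds) and without each library in turn. Filled symbols were called. C1q ran from 2.35 to 4.24 and was highest without CD36- NK replicate 2, and C3 and Cfb stayed near 0 on both sides of it.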

How the data were processed

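RNA sequencing covered 3 samples of each group. The authors filtered reads with Seqtk, mapped them with HISAT2 2.0.4 and obtained gene counts with StringTie, and the deposited counts are raw, without normalization. The submitters' processing notes name the rat build mRatBN7.2, while the rows carry mouse Ensembl identifiers, and the mouse build is not given in the sources used here. The FPKM values that the authors deposited equal counts divided by gene length and library total (within 1% in 100.0% of the 7439 genes above 200 counts in every library) and served only to compare genes per length. The lines of 2 genes were broken and were rejoined. Columns were assigned by library name.

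Genes were kept by filterByExpr with a minimum count of 10, scaled by TMM and tested in edgeR 4.0.16 (R 4.3.3) with the quasi-likelihood test without a block, and called at the study's thresholds. Each standard error was taken as |log2 fold change| divided by the root of F. Levels relative to other genes are differences of mean log2 CPM with a prior count of 2. No pair of replicates was a duplicate (chi-square over its degrees of freedom, 14.8 to 29.2). The counts of 10292480 to 13787189 per library set the precision of low genes. DESeq2 1.42.0, edgeR's exact test, other normalizations, filters, thresholds and blocks and each library left out were tried. The script was tested on simulated data.

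The 8 genes and all lists were chosen with earlier results of these data known, so their counts are descriptions. Named are the 8 genes, Cd36, in the 4 complement lists the called genes and the 2 of highest mean CPM, for each of the 8 the 2 genes of at least 10 mean CPM with the highest Pearson correlation, and the 2 of highest mean CPM in each cell type list, printed only where they stand beside a result. All further names were picked with values in view. Of 12 cell type lists, the medians of log2 fold change were 2.68 for macrophages, -0.42 for monocytes, -0.24 for neutrophils, 0.38 for dendritic cells, 0.51 for B cells, 2.34 for T cells (highest in CD36+ NK replicate 1), -2.45 for the NK lineage, 2.01 for hepatocytes (1 tested gene), 0.12 for stellate cells, 0.38 for sinusoidal endothelium, 1.86 for erythroid cells and 0.49 for platelets. Itgax and Fcnb are also in the dendritic cell and monocyte lists. A further complement gene is not reported here.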

Additional observations from a re-analysis of the deposited data

How the results depend on the processing

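The number of the 8 genes called was 2. It was 5 with DESeq2, with edgeR's exact test and with the form of the library name as a block, and 1 without a filter on low counts and with the replicate block, and it ran from 0 to 4 when each library was left out. The calls over all genes moved too, from 880 to 756 without a filter, to between 417 and 431 in the 3 fits that called none of the 8 (those lacking replicate 2 of CD36+ NK, or replicate 1 or 3 of CD36- NK), to 451 without CD36+ NK replicate 3, and to 1122 and 1160 without CD36+ NK replicate 1 and CD36- NK replicate 2. The C1q chains (C1qa, C1qb and C1qc) passed the threshold with DESeq2 (log2 fold changes 2.90, 2.86 and 2.91), with the exact test (2.91, 2.87 and 2.92, adjusted p from 0.00149 to 0.00219) and with the library name block (3.005, 2.96 and 3.03). C5ar1 lost its call without a filter (1.70, adjusted p = 0.0554) and Cfp with the replicate block (2.15, edgeR adjusted p = 0.0786). The block called 560 genes in all (3.79%), where the fit without it called 880. Deviations of same-numbered libraries had correlations of 0.310, 0.0515 and -0.0837 across genes, and other matchings were not compared. These values cannot show whether samples of both groups came from the same livers, and the main fit used no block. With libraries left out, the log2 fold changes ran from 2.35 to 4.23 (C1qa), 2.37 to 4.12 (C1qb), 2.37 to 4.24 (C1qc), 1.68 to 2.70 (Cfp), 1.32 to 1.98 (C5ar1), 0.26 to 1.32 (C3ar1), -0.12 to 0.38 (C3) and -0.20 to 0.50 (Cfb). C3 reversed to -0.12 and Cfb to -0.06 without CD36- NK replicate 3, and Cfb to -0.20 without CD36+ NK replicate 2. The cause of these changes was not tested. The 5 levels relative to other genes kept their direction under the 8 alternatives of each. Among these, the paired differences equal the main value by construction and could not have changed it. The ranges when libraries were left out were 0.444 to 0.886 (C1q against macrophage genes), -2.64 to -1.24 (receptors against C1q), -3.71 to -2.35 (C3), -1.45 to -0.70 (Cfp) and -3.61 to -2.59 (Cfb). With 3 libraries a group, p-values near the threshold turn on single libraries, and C3ar1 and Cfb rest on few counts.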
